A study of Mus musculus with 9 samples.

Results

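Matrix metalloproteinases (MMPs) and tissue inhibitors of metalloproteinases (TIMPs) were followed through osteoblast differentiation and Runx2 depletion. The genes were chosen by symbol and are 10 of the 19937 genes analysed: the collagenase Mmp13, the stromelysin Mmp3, the gelatinases Mmp9 and Mmp2, the membrane-bound enzymes Mmp14, Mmp16 and Mmp23, and the inhibitors Timp1, Timp2 and Timp3. Each of the 10 was read by 1 probe set that carries no other gene's symbol, and each was measured on all 9 arrays.

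The cells were MC3T3-E1 subclone 4, a preosteoblast line from mouse calvaria, infected with a lentivirus that carries a short hairpin RNA (shRNA) and sorted for green fluorescent protein (GFP). In all, 3 groups of 3 arrays each were compared, which the labels call biological replicates: cells with an shRNA against Runx2 after 9 days of differentiation (shRunx2 day 9), cells with a scrambled shRNA after the same 9 days (Scr day 9), and proliferating cells with the scrambled shRNA (Scr day 0). Medium with ascorbic acid and beta-glycerophosphate was used to induce differentiation. No shRunx2 array of day 0 was analysed here, all 3 groups carried a lentiviral hairpin, and no expression value of Runx2 is given, since that gene is not analysed here.

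MMPs are zinc-dependent endopeptidases that cleave collagens, proteoglycans and other proteins of the extracellular matrix, and most are made as inactive proenzymes. TIMPs bind the active site of MMPs and block it, and Timp2 also joins the Mmp14 protein at the cell surface in the activation of pro-Mmp2. In bone, Mmp13 is the collagenase of osteoblasts and hypertrophic chondrocytes, Mmp9 is best known from osteoclasts, and Mmp14 is needed for normal remodelling of the collagen matrix.

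Promoter sequences are shown for Mmp13, which changed most, for Mmp3, a gene of the same chromosome 9 run that did not pass, and for Mmp14. Mmp14 passed in control cells, as did Timp1, Timp2 and Timp3, whose promoters were searched but are not printed. RefSeq promoters of assembly GRCm38.p6, each with 250 bases before and 50 bases from the start of the transcript on, were matched by symbol for 7 of the 10 genes, and not for Mmp2, Mmp9 and Mmp16. The windows were searched on both strands for TGTGGT, the core letters bound by Runx proteins, and for TGANTCA. In TGANTCA, N is any base, so the pattern includes the letters bound by the AP-1 factors but is wider than these. Capitals mark the matches below, and a match on the opposite strand reads ACCACA.
Mmp13 promoter (chr9:7272264-7272563, plus strand): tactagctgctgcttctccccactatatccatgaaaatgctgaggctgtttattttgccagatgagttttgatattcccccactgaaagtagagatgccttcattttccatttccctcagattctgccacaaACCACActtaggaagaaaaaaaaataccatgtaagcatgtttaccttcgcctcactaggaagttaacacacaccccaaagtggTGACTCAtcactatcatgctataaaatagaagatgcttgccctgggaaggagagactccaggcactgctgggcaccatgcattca
Mmp3 promoter (chr9:7445572-7445871, plus strand): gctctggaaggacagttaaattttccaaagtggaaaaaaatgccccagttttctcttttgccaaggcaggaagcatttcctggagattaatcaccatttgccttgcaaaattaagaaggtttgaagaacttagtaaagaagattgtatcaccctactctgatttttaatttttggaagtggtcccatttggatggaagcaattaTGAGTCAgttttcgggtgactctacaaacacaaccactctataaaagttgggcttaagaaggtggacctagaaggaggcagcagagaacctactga
Mmp14 promoter (chr14:54431348-54431647, plus strand): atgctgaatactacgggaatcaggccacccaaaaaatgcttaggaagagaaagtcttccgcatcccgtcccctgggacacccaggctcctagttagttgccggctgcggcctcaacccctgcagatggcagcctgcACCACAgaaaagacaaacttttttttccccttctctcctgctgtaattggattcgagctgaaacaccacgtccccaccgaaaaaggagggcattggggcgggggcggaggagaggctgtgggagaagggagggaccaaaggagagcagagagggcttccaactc

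The Mmp13 window held TGTGGT on the opposite strand at positions -118 to -113 from the start site and TGANTCA at -35 to -29. The Mmp3 window held TGANTCA at -46 to -40 and no TGTGGT, and the Mmp14 window held TGTGGT on the opposite strand at -114 to -109 and no TGANTCA. For Mmp23, which has 2 annotated starts, TGTGGT lay at -177 to -172 of 1 of them. The windows of Timp1, Timp2 and Timp3 held neither motif. Among 32851 RefSeq promoters of this length, 16.8% held TGTGGT and 7.81% held TGANTCA. The motifs do not overlap, and the matches describe letters in these windows only.

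Values below are log2 expression values after robust multichip average (RMA) normalization, so that a difference of 1 log2 unit is a 2-fold difference. Probe sets differ in how strongly they bind, so levels are compared between groups for 1 gene and not between genes. Differences were tested with limma across all 19937 genes, with Benjamini-Hochberg adjustment, and rose or fell is written of genes with an adjusted p under 0.05. An array gives no read depth, and precision is limited by the number of arrays. Within a group, arrays correlated at 0.9981 to 0.9991 across genes, against 0.9962 to 0.9969 between shRunx2 and Scr arrays of day 9, and no array stood apart. In a bulk sample, fewer cells of a type and less RNA per cell cannot be told apart.

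To determine which of these genes differ in cells with the shRNA against Runx2, shRunx2 and Scr cells of day 9 were compared. The groups carry different hairpins, so loss of Runx2 and other effects of a hairpin cannot be told apart here. Mmp13 and Mmp16 fell in shRunx2 cells, Mmp9 rose slightly, and the other 7 genes did not pass. Counted in each direction, 1 of the 10 rose, where 2.73% of all genes rose, and 2 fell, where 4.66% of all genes fell. The gene that rose, Mmp9, was near the threshold (limma adjusted p = 0.0447), and none rose without replicate 2 or 3 of shRunx2 day 9, replicate 2 or 3 of Scr day 9, or replicate 1 or 2 of Scr day 0. With a change of at least 1.5-fold as a further condition, none rose (0.396% of all genes) and only Mmp13 fell (0.196%). The median log2 difference was 0.021 over the 10 genes and -0.004 over all genes. The background count of fallen genes, 930, was 562, 503 and 507 without Scr day 9 replicate 1, Scr day 9 replicate 2 and shRunx2 day 9 replicate 1, and that of risen genes, 544, was 355 without Scr day 9 replicate 2. The 3 shRunx2 arrays lay wholly above the 3 Scr arrays of day 9 for 3 of the 10 genes (8.34% of all genes) and wholly below them for 4 (15.3%).

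To determine how the same genes change as control cells differentiate, Scr cells of day 9 and day 0 were compared. At day 9, Mmp13, Mmp9, Mmp14, Mmp2 and Timp2 were higher, Mmp16, Timp1 and Timp3 were lower, and Mmp3 and Mmp23 did not pass. Thus 5 of the 10 rose (14.5% of all genes) and 3 fell (17.1%). With at least 1.5-fold, Mmp13 and Mmp9 rose (2.89% of all genes) and Mmp16 and Timp1 fell (2.25%). The median log2 difference was 0.082 over the 10 genes and -0.016 over all genes. The groups did not overlap for the same 8 genes that passed, 5 of them higher (18.1% of all genes) and 3 lower (22%).

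The levels in shRunx2 cells of day 9 were also set against Scr day 0. These groups differ in both hairpin and day, so effects of the hairpin and of differentiation cannot be told apart in this comparison. Again 5 of the 10 were higher (13.8% of all genes) and 3 lower (20.4%), and the median log2 difference was 0.147 over the 10 and -0.009 over all genes. Their groups did not overlap, where 17.7% of all genes lay wholly higher and 24.6% wholly lower. The comparison shares arrays with each of the other two, so the 3 differences of a gene are given side by side and are not independent.

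**Figure D1:**
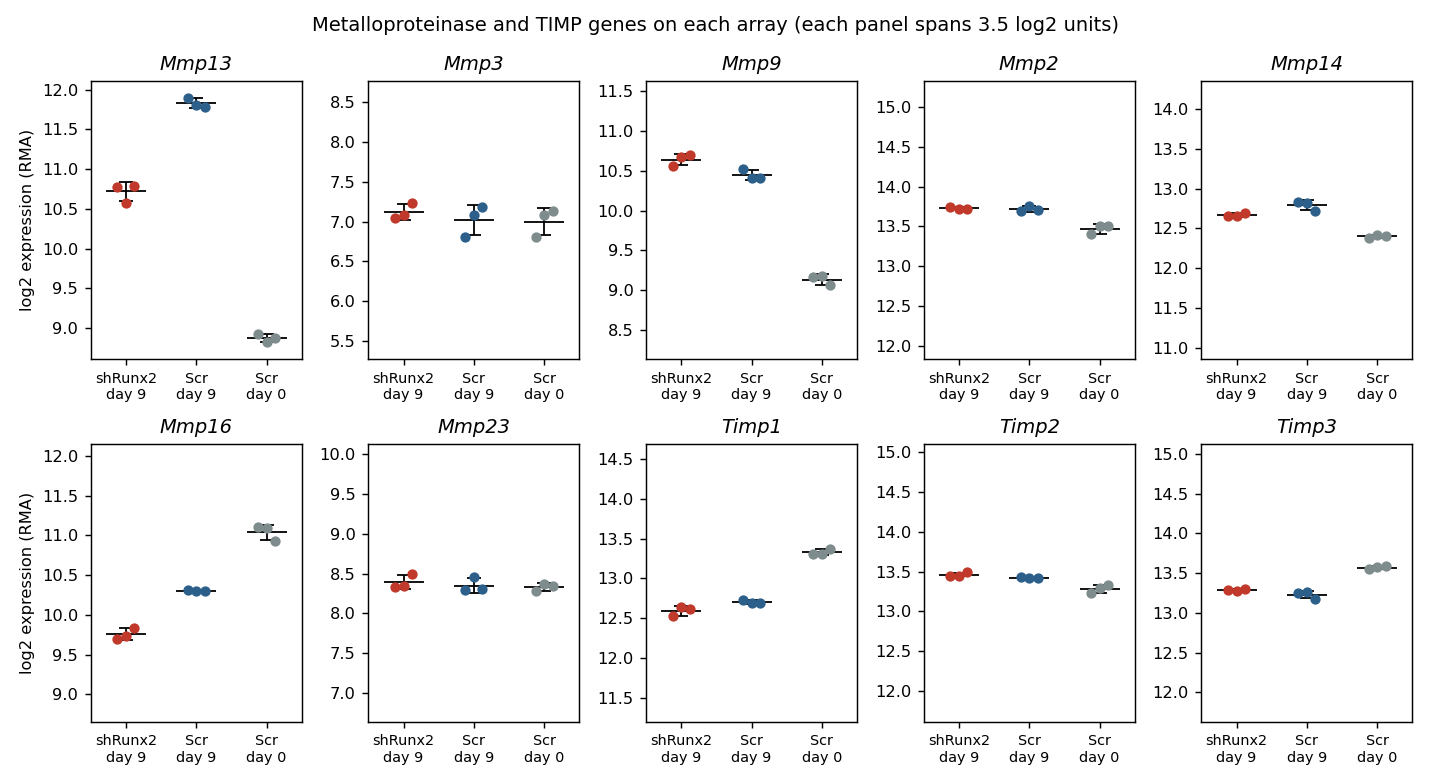
Log2 expression (RMA) of the 10 genes on each array, with shRunx2 day 9 in red, Scr day 9 in blue and Scr day 0 in grey. Bars are the mean and SD of 3 arrays, and each panel spans the same number of log2 units. Mmp13 lies between 10.57 and 10.79 on shRunx2 arrays, below all Scr day 9 arrays and above all Scr day 0 arrays, while Mmp16 is lowest on the shRunx2 arrays and highest at day 0.

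Mmp13, an enzyme that cleaves fibrillar collagen in mouse bone, had the largest difference of the 10 genes in all 3 comparisons. Its log2 expression was 10.78, 10.57 and 10.79 on the shRunx2 day 9 arrays, against 11.90, 11.81 and 11.78 on the Scr day 9 arrays and 8.92, 8.82 and 8.87 on the Scr day 0 arrays. The 3 groups were fully apart, with shRunx2 cells between the other two. The mean was 10.72 ± 0.12 in shRunx2 cells of day 9 and 11.83 ± 0.061 in Scr cells of day 9 (SD, n = 3 each), a 2.16-fold lower level (log2 difference -1.11 ± 0.060, SE, 95% confidence interval -1.25 to -0.98, limma adjusted p = 1.63e-06). Among the 19937 genes it ranked 3 from the lowest difference. Scr cells of day 9 stood 7.76-fold above Scr cells of day 0, which averaged 8.87 ± 0.051 (log2 difference 2.96 ± 0.060, interval 2.82 to 3.09, limma adjusted p = 2.87e-11), which ranked 11 from the highest. The shRunx2 cells of day 9 were 3.58-fold above Scr day 0 (log2 difference 1.84 ± 0.060, limma adjusted p = 1.01e-09). Under 19 alternative settings the knockdown difference lay between -1.15 and -1.04 and passed in each.

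Genes whose levels followed Mmp13 most closely over the 9 arrays were Dab2, an endocytic adaptor (Pearson r = 0.9996), Nr4a1, an orphan nuclear receptor (r = 0.9977), and Tnfrsf19, a receptor of the tumor necrosis factor family (r = 0.9974). The 9 arrays form 3 groups of 3, so these values mainly compare the order and spacing of the group means and are a description. Tnfrsf19 was 10.21, 10.20 and 10.23 in shRunx2 cells of day 9, against 11.16, 11.09 and 11.16 in Scr cells of day 9 and 8.78, 8.88 and 8.79 at day 0. Its knockdown difference was -0.92 on the log2 scale, and that of Dab2 and Nr4a1 was -0.35 and -0.38. The groups lay in the same order in each of these genes as in Mmp13, with smaller differences.

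Mmp3, the stromelysin that degrades non-fibrillar matrix and can activate other MMPs, lies in the same run of Mmp genes on chromosome 9 as Mmp13. Its values were 7.04, 7.08 and 7.23 on shRunx2 day 9 arrays, against 6.81, 7.08 and 7.18 on Scr day 9 arrays and 6.81, 7.08 and 7.13 on Scr day 0 arrays. The 3 groups overlapped, and replicate 1 was the lowest of each. The log2 difference was 0.096 ± 0.10 between shRunx2 and Scr cells of day 9 (interval -0.13 to 0.32, limma adjusted p = 0.681) and 0.017 ± 0.10 between Scr cells of day 9 and day 0 (interval -0.21 to 0.24, limma adjusted p = 0.934).

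RefSeq places 10 protein-coding genes in the run from Mmp13 to Mmp7, and all of them are Mmp genes measured here. In their order along the chromosome they are Mmp13, Mmp12, Mmp1b, Mmp3, Mmp1a, Mmp10, Mmp8, Mmp27, Mmp20 and Mmp7. Of the 10, Mmp13 was the one that passed in either comparison. Each of the others had a mean over the 9 arrays between 5.38 (Mmp1b) and 8.03 (Mmp10). These means lay below 8.83, the median over all genes. The deposited values have no detection call, so genes not expressed cannot be told from genes that did not change. The neighbour Mmp12, the macrophage elastase, had a log2 difference of 0.032 ± 0.056 between shRunx2 and Scr cells of day 9 (limma adjusted p = 0.817) and -0.063 ± 0.056 between Scr cells of day 9 and day 0 (limma adjusted p = 0.477). Mmp1a came nearest the threshold, at 0.11 ± 0.041 between shRunx2 and Scr cells of day 9 (limma adjusted p = 0.176), and without Scr day 9 replicate 1 it was 0.15 and passed (limma adjusted p = 0.049). In that setting it also passed between Scr cells of day 9 and day 0 (log2 difference -0.14, limma adjusted p = 0.0136), against -0.10 ± 0.041 with all arrays (limma adjusted p = 0.0906).

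**Figure D2:**
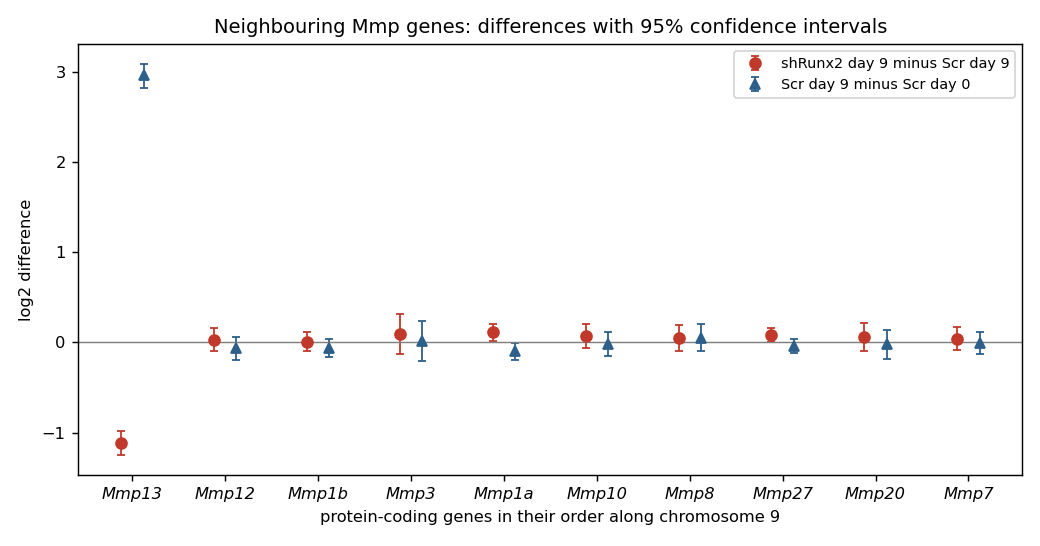
Log2 differences with 95% confidence intervals (vertical axis) for the 10 Mmp genes of the chromosome 9 run in gene order (horizontal axis, not to genomic scale). Red circles are shRunx2 day 9 minus Scr day 9 and blue triangles are Scr day 9 minus Scr day 0. Mmp13 is at -1.11 and 2.96, while the other 9 genes, all with mean levels below the median over all genes, lie near 0.

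Of the gelatinases, which digest denatured collagen and basement membrane, Mmp9 rose with differentiation and stood slightly higher still in shRunx2 cells. Mmp9 was 10.56, 10.67 and 10.70 on the shRunx2 day 9 arrays, against 10.52, 10.41 and 10.41 on the Scr day 9 arrays and 9.16, 9.18 and 9.06 on the Scr day 0 arrays. Both day 9 groups lay far above day 0, and the gap between the lowest shRunx2 array and the highest Scr array of day 9 was small. Mmp9 averaged 10.45 ± 0.065 in Scr cells of day 9 and 9.13 ± 0.065 in Scr cells of day 0, a 2.49-fold higher level at day 9 (log2 difference 1.32 ± 0.052, interval 1.20 to 1.43, limma adjusted p = 4.99e-09). In shRunx2 cells of day 9 it averaged 10.64 ± 0.073, which was 1.14-fold above Scr cells of day 9 (log2 difference 0.20 ± 0.052, interval 0.08 to 0.31, limma adjusted p = 0.0447). That call passed in 10 of 19 alternative settings, with limma adjusted p values from 0.00367 to 0.169. It was lost without Scr day 9 replicate 2 (0.169) or 3 (0.125), without shRunx2 day 9 replicate 2 (0.125) or 3 (0.146) and without Scr day 0 replicate 1 (0.0592) or 2 (0.0588).

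Mmp2, the gelatinase made by most mesenchymal cells, rose with differentiation and did not pass between the day 9 groups. Its values were 13.75, 13.72 and 13.72 in shRunx2 cells of day 9, against 13.69, 13.76 and 13.71 in Scr cells of day 9 and 13.40, 13.51 and 13.50 at day 0. The day 9 groups overlapped, and both lay above day 0. The difference between shRunx2 and Scr cells of day 9 was 0.008 ± 0.040 (interval -0.08 to 0.10, limma adjusted p = 0.943), and that between Scr cells of day 9 and day 0 was 0.25 ± 0.040, a 1.19-fold higher level (limma adjusted p = 0.000414).

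The membrane-bound enzymes showed 3 different patterns. Mmp16, also called MT3-MMP, fell at day 9 and was lower again in shRunx2 cells. Its log2 expression was 9.70, 9.73 and 9.84 on the shRunx2 day 9 arrays, against 10.31, 10.30 and 10.30 on the Scr day 9 arrays and 11.11, 11.09 and 10.93 on the Scr day 0 arrays. The 3 groups did not overlap, and shRunx2 cells lay farthest from day 0. Mmp16 was 1.46-fold lower in shRunx2 than in Scr cells of day 9 (log2 difference -0.55 ± 0.053, interval -0.66 to -0.43, limma adjusted p = 8.01e-05), a difference just under 1.5-fold. It was 1.67-fold lower in Scr cells of day 9 than of day 0 (log2 difference -0.74 ± 0.053, interval -0.86 to -0.62, limma adjusted p = 7.34e-07) and 2.44-fold lower in shRunx2 cells of day 9 than in Scr cells of day 0 (-1.29 ± 0.053, limma adjusted p = 6.49e-09).

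Mmp13 and Mmp16 were the genes that fell in shRunx2 cells, and their courses in control cells ran in opposite directions. For Mmp13 the knockdown difference ran against the differentiation change, and for Mmp16 it ran the same way. Both differences of a gene use the Scr day 9 arrays, so this is a description of the group order.

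Mmp14, also called MT1-MMP, a collagenase of the cell surface and activator of pro-Mmp2, was 12.65, 12.65 and 12.69 in shRunx2 cells of day 9, against 12.83, 12.82 and 12.72 in Scr cells of day 9 and 12.38, 12.42 and 12.41 at day 0. The 3 groups did not overlap, although Scr day 9 replicate 3 lay close to the shRunx2 arrays. Mmp14 was 1.31-fold higher in Scr cells of day 9 than of day 0 (log2 difference 0.39 ± 0.040, interval 0.30 to 0.48, limma adjusted p = 1.39e-05). The difference between shRunx2 and Scr cells of day 9, -0.13 ± 0.040 (interval -0.21 to -0.04), did not pass (limma adjusted p = 0.0924). It passed in 4 of 19 alternative settings (limma adjusted p from 0.027 to 0.27), among them the fit without Scr day 9 replicate 3 (-0.16, limma adjusted p = 0.0394).

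Mmp23, a transmembrane enzyme released from the cell by proprotein cleavage, had overlapping groups throughout. It was 8.33, 8.34 and 8.49 in shRunx2 cells of day 9, against 8.29, 8.46 and 8.31 in Scr cells of day 9 and 8.28, 8.37 and 8.34 at day 0. The log2 difference was 0.034 ± 0.056 between shRunx2 and Scr cells of day 9 (interval -0.09 to 0.16, limma adjusted p = 0.81) and 0.022 ± 0.056 between Scr cells of day 9 and day 0 (interval -0.10 to 0.15, limma adjusted p = 0.827). Mmp3 and Mmp23 were also the 2 of the 10 genes whose mean over the 9 arrays lay below 8.83, the median over all genes.

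None of the inhibitors passed between shRunx2 and Scr cells of day 9, where 1 of the 3, Timp1, had an unadjusted limma p under 0.05 (0.0222), while all 3 changed in control cells, in different directions. Timp1, a secreted inhibitor induced in many cells, was 12.52, 12.64 and 12.62 on the shRunx2 day 9 arrays, against 12.73, 12.69 and 12.69 on the Scr day 9 arrays and 13.31, 13.31 and 13.37 on the Scr day 0 arrays. Day 0 lay well above both day 9 groups, which did not overlap with each other. Timp1 was 1.54-fold lower in Scr cells of day 9 than of day 0 (log2 difference -0.63 ± 0.041, interval -0.72 to -0.54, limma adjusted p = 3.44e-07). The difference between shRunx2 and Scr cells of day 9 was -0.11 ± 0.041 (interval -0.20 to -0.02) and did not pass (limma adjusted p = 0.159).

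Timp2, the partner of Mmp14 and Mmp2, was 13.45, 13.45 and 13.49 in shRunx2 cells of day 9, against 13.43, 13.42 and 13.42 in Scr cells of day 9 and 13.23, 13.29 and 13.33 at day 0. Both day 9 groups lay above day 0. Timp2 was 1.1-fold higher in Scr cells of day 9 than of day 0 (log2 difference 0.14 ± 0.037, interval 0.06 to 0.22, limma adjusted p = 0.0111). Between shRunx2 and Scr cells of day 9 the difference was 0.040 ± 0.037 (interval -0.04 to 0.12, limma adjusted p = 0.619), although the arrays did not overlap.

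Timp3, which binds to the matrix and also inhibits ADAM proteases, was 13.29, 13.28 and 13.30 in shRunx2 cells of day 9, against 13.25, 13.26 and 13.17 in Scr cells of day 9 and 13.55, 13.58 and 13.59 at day 0. Day 0 was the highest group. Timp3 was 1.27-fold lower in Scr cells of day 9 than of day 0 (log2 difference -0.35 ± 0.036, interval -0.43 to -0.27, limma adjusted p = 1.65e-05), and shRunx2 cells differed from Scr cells of day 9 by 0.061 ± 0.036 (interval -0.02 to 0.14, limma adjusted p = 0.407). The intervals of the 3 inhibitors between shRunx2 and Scr cells of day 9 all lay within -0.20 to 0.14 on the log2 scale.

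**Figure D3:**
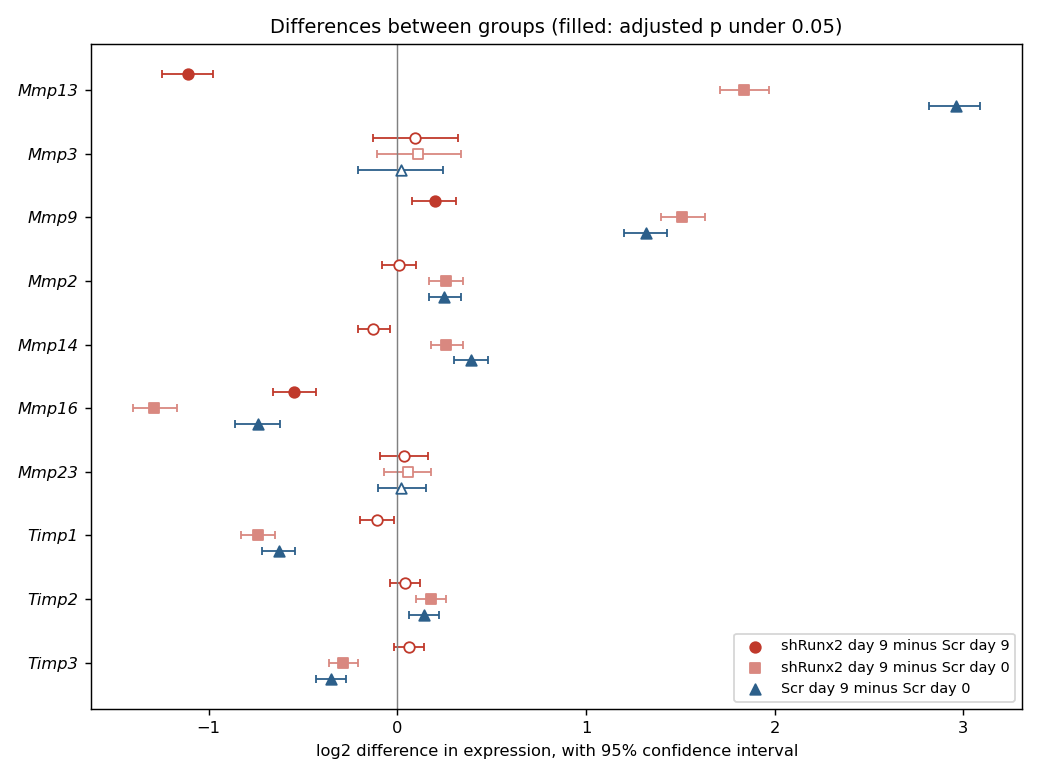
Log2 differences of the 10 genes (horizontal axis) with 95% confidence intervals, filled where the adjusted p was under 0.05. Red circles are shRunx2 day 9 minus Scr day 9, pink squares shRunx2 day 9 minus Scr day 0 and blue triangles Scr day 9 minus Scr day 0. The circles of Mmp13 (-1.11) and Mmp16 (-0.55) lie farthest from 0, while 8 genes have filled triangles.

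The rest of the family was measured to set the 10 genes in context. Of 17 further genes (16 other MMPs and Timp4), 16 were measured, and none of the 16 passed between shRunx2 and Scr cells of day 9, where their differences ran from -0.04 to 0.11 with a median of 0.037 (all genes, -0.004). At an unadjusted limma p under 0.05, 1 of the 16 was higher, Mmp1a (0.0262), and none lower. The share of all genes at that threshold was not counted. Between Scr cells of day 9 and day 0, none rose (14.5% of all genes) and 3 fell (17.1%). The median there was -0.052 over the list and -0.016 over all genes. At an unadjusted limma p under 0.05, 1 was higher and 4 were lower, and the share of all genes was not counted here either. Mmp19 had values of 9.73, 9.77 and 9.73 at day 9, against 10.13, 9.95 and 9.97 at day 0 (log2 difference -0.27 ± 0.058, limma adjusted p = 0.00302). Mmp11, or stromelysin-3, fell by 0.15 and Mmp28, or epilysin, fell by 0.14 on the log2 scale (limma adjusted p = 0.0122 and 0.011). Mmp11, Mmp19 and Mmp28 were the only genes of the 16 whose mean over the 9 arrays lay above 8.83, the median over all genes. For the rest, genes not expressed cannot be told from genes that did not change. The call of Mmp11 was lost without Scr day 9 replicate 3 (0.0512) and that of Mmp28 without Scr day 0 replicate 2 (0.0503), while Timp4 passed without Scr day 9 replicate 2 (log2 difference 0.15, limma adjusted p = 0.0312).

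Proteins that activate, anchor or clear MMPs were counted in the same way. Of 25 such genes, 23 were measured. Between shRunx2 and Scr cells of day 9, none rose (2.73% of all genes), 1 fell (4.66%) and 22 did not pass, with a median of 0 over the list and -0.004 over all genes. At an unadjusted limma p under 0.05, 3 were higher and 4 lower, and the share of all genes at that threshold was not counted. Between Scr cells of day 9 and day 0, 4 rose (14.5% of all genes) and 8 fell (17.1%), with a median of -0.036 over the list and -0.016 over all genes. The gene that fell in shRunx2 cells was Plaur, the cell-surface receptor of urokinase, at 8.69, 8.82 and 8.84 against 9.03, 9.10 and 8.99 in Scr cells of day 9 (log2 difference -0.25 ± 0.047, limma adjusted p = 0.00764). Reck, a membrane-anchored MMP inhibitor, passed without Scr day 0 replicate 1 (log2 difference 0.14, limma adjusted p = 0.0388, against 0.0656 with all arrays).

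The plasminogen activators moved in opposite directions in control cells. Plau, or urokinase, which converts plasminogen to the MMP-activating protease plasmin, was 9.39, 9.25 and 9.27 in Scr cells of day 9, against 10.97, 10.91 and 10.77 at day 0, which was 3-fold lower at day 9 (log2 difference -1.58 ± 0.068, limma adjusted p = 1.12e-08). Its receptor gene Plaur fell by 0.98 on the log2 scale (limma adjusted p = 2.59e-08). Plat, the tissue-type activator, was 10.98, 11.02 and 10.93 in Scr cells of day 9, against 9.98, 9.81 and 9.75 at day 0, which was 2.19-fold higher (log2 difference 1.13 ± 0.057, limma adjusted p = 3.57e-08). Ctsk, a collagen-degrading cysteine protease best known from osteoclasts, was 3.29-fold higher at day 9 (log2 difference 1.72 ± 0.057, limma adjusted p = 1.23e-09). The counts of this list in control cells include Bsg, Cd44, Lcn2 and Pcsk7, each of which was lost when 1 of certain arrays was left out, with limma adjusted p values up to 0.0866, 0.0972, 0.111 and 0.0512.

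Membrane-bound ADAM proteases and related sheddases, which release proteins from the cell surface and are inhibited in part by Timp3, included 9 genes, all measured. Between shRunx2 and Scr cells of day 9, 1 rose (2.73% of all genes), 1 fell (4.66%) and 7 did not pass, with a median of 0.042 over the list and -0.004 over all genes. Adam10 was 11.67, 11.45 and 11.66 in shRunx2 cells, against 11.08 on each of the 3 Scr arrays of day 9 (log2 difference 0.51 ± 0.072, limma adjusted p = 0.0013). Adam17, the enzyme that sheds tumor necrosis factor, was 10.17, 10.03 and 10.16 in shRunx2 cells, against 10.62, 10.61 and 10.61 in Scr cells of day 9 (log2 difference -0.49 ± 0.049, limma adjusted p = 8.85e-05). The related enzymes thus stood on opposite sides of their controls, each by less than 1.5-fold. Adam19 passed as lower without shRunx2 day 9 replicate 2 (log2 difference -0.16, limma adjusted p = 0.0483, against 0.514 with all arrays).

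The Scr day 9 values of Adam10 were exactly equal on the 3 arrays, as were those of 291 genes in this group (1.46%), 383 genes in shRunx2 cells of day 9 (1.92%) and 308 genes in Scr cells of day 0 (1.54%). None of the 10 genes was among them in any group. The cause was not tested.

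Between Scr cells of day 9 and day 0, 2 of the 9 sheddase genes rose (14.5% of all genes) and 5 fell (17.1%), with a median of -0.288 over the list and -0.016 over all genes. Adam9 fell by 0.80, Adam19 by 0.55, Adam12 by 0.38 and Adam8 by 0.31 on the log2 scale (limma adjusted p = 1.54e-08, 2.2e-05, 6.51e-06 and 0.000225). Adam10 was 0.46 ± 0.072 higher and Adam17 had a difference of -0.29 ± 0.049 at day 9 (limma adjusted p = 0.000436 and 0.000679).

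**Figure D4:**
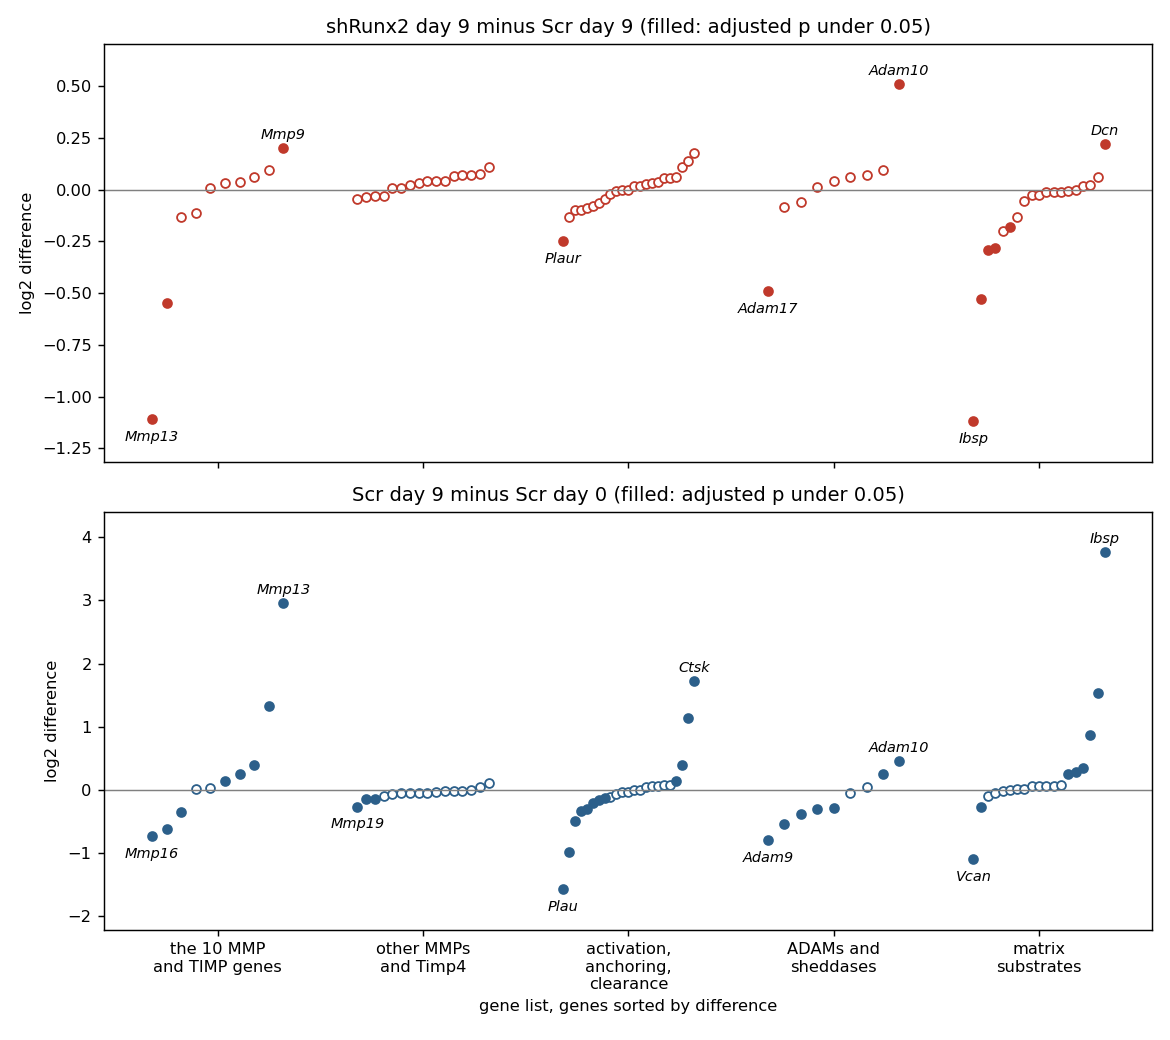
Log2 differences of single genes (points, sorted within each list) for the 10 genes and the 4 related lists, filled where the adjusted p was under 0.05. The upper panel is shRunx2 day 9 minus Scr day 9 and the lower panel Scr day 9 minus Scr day 0, on different vertical scales. No point of the other MMP genes is filled in the upper panel, where Mmp13 (-1.11) and Ibsp (-1.12) are the lowest.

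Markers of cell types that make MMPs were read on the same arrays. The mean log2 level of 8 measured osteoblast markers ranged from 10.15 to 10.17 in shRunx2 cells of day 9, against 10.69 to 10.76 in Scr cells of day 9 and 9.42 to 9.50 at day 0, the same order of groups as for Mmp13. Of these markers, 5 fell in shRunx2 cells (4.66% of all genes) and 7 rose in Scr cells of day 9 over day 0 (14.5%). Those that fell in shRunx2 cells were Phex, Ibsp, Alpl, Pth1r and Sp7, with log2 differences of -1.94, -1.12, -0.75, -0.42 and -0.21. The shRunx2 day 9 values of Alpl, and those of the osteoclast marker Itgb3, were exactly equal on the 3 arrays. For 10 osteoclast markers, which bear on Mmp9, the mean ranged from 8.61 to 8.62 in shRunx2 cells of day 9, against 8.61 to 8.68 in Scr cells of day 9 and 8.41 to 8.43 at day 0. Of the 10, Ctsk and Itgb3 rose (14.5% of all genes) and Slc4a2 fell (17.1%) in Scr cells of day 9 over day 0. The other 7 did not pass, and the largest difference was that of Ctsk (1.72). For 9 macrophage markers it ranged from 7.80 to 7.84 in shRunx2 cells, against 7.73 to 7.77 in Scr cells of day 9 and 7.71 to 7.72 at day 0. Of the 9, Lyz2 rose in shRunx2 over Scr cells of day 9 and in Scr cells of day 9 over day 0 (log2 differences 0.42 and 0.80), and Cd14 fell in Scr cells of day 9 relative to day 0 (-0.32). The other 7 macrophage markers did not pass between Scr cells of day 9 and day 0. Means of 10 chondrocyte markers, not only of hypertrophic cells, lay between 8.69 and 8.82 on all arrays. Those of 10 endothelial markers lay between 8.05 and 8.12. Between shRunx2 and Scr cells of day 9, the genes that passed besides Lyz2 and the osteoblast markers were Itgb3 of the osteoclast markers (log2 difference -0.25), Sox9 of the chondrocyte markers (0.20) and Flt1 of the endothelial markers (-0.22), which was the marker of its list that rose in Scr cells of day 9 over day 0 (0.44). The deposited values have no zero point and no detection call, and the part of these markers in the differences of Mmp9 and Mmp13 was not tested.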

How the data were processed

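RNA of 9 samples was hybridized to Affymetrix arrays, 1 array per sample, and groups were taken from the sample labels. The authors deposited log2 values from robust multichip average (RMA), a method that subtracts background, gives all arrays the same distribution of intensities and combines the probes of a set into 1 value. A filter that the study's methods name is not described there. The submitters' processing notes name RMA and limma. After such scaling, a change shared by most genes would not show.

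Of 34760 probe sets, 21640 had 1 gene symbol in the platform annotation, 1321 had several and 11799 were unnamed here. Where a gene had several probe sets (954 genes), the one with the highest mean over the 9 arrays was used, which left 19937 genes. The test was the moderated test of limma 3.58.1 (lmFit and eBayes, under R 4.3.3) in 1 model of 3 group means, without covariates or filter, with Benjamini-Hochberg adjustment over the whole set of genes. The step was tested on simulated data. Values are log2 differences with their standard error (SE), or group means with the standard deviation (SD) of 3 arrays. Replicates are biological per the labels, and p values set differences of group means against the spread between these samples, as moderated by limma.

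The 10 genes and the related gene lists were chosen with earlier results of these data known. From each list, cell type markers included, the genes that passed between shRunx2 and Scr cells of day 9 are named, with up to 4 of the smallest adjusted p between Scr cells of day 9 and day 0 from the 4 lists of related genes. For a gene of the 10 called at 1.5-fold in the knockdown, the 3 genes of the highest correlation are named. Other names from the lists were chosen after their values were seen. Alternatives were the arrays of 2 groups alone, a replicate block, array weights, 2 rescalings, a filter on dim genes, every probe set tested, the mean of a gene's probe sets, 2 variance priors and leaving out each array.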

Additional observations from a re-analysis of the deposited data

How the results depend on the processing

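The 30 differences of the 10 genes were recomputed under up to 19 alternatives, which gave 564 values. Of these, 538 kept their direction and their side of the threshold, 9 no longer passed (all Mmp9 between shRunx2 and Scr cells of day 9), 4 newly passed (all Mmp14 in that comparison) and 13 changed sign. In that comparison no gene of the 10 rose with the arrays of the 2 groups alone, with a replicate block or with every probe set tested (0 each, limma adjusted p of Mmp9 0.0696, 0.0694 and 0.128), and 0 to 1 rose when 1 array was left out. Mmp14 passed with array weights (0.027), an intensity trend (0.0374) and a filter on dim genes (0.048), which removed Mmp3 and Mmp23. Deviations of same-numbered arrays had correlations of -0.04, 0.10 and -0.11 between shRunx2 and Scr cells of day 9. Between Scr cells of day 9 and day 0 they were 0.29, 0.08 and 0.29. In the first comparison, 1 of 3 arrays of each group correlated best with its own number. In the second, 2 of 3 Scr day 9 arrays and all 3 Scr day 0 arrays did. The labels name no pairs, and the numbers were not taken as pairs in the main fit. With the block, 543 genes rose and 907 fell in shRunx2 cells, and no other call of the 10 genes changed. All sign changes were in values near 0 that did not pass: with array weights Mmp2 was -0.013 and Mmp23 -0.022 between shRunx2 and Scr cells of day 9, and with equal array medians Mmp3 was -0.017 and Mmp23 -0.011 between Scr cells of day 9 and day 0. When 1 array was left out, Mmp3 ranged from -0.012 to 0.17, Mmp2 from -0.006 to 0.026 and Mmp23 from -0.017 to 0.085 between shRunx2 and Scr cells of day 9, and Mmp3 from -0.081 to 0.12 and Mmp23 from -0.029 to 0.054 between Scr cells of day 9 and day 0. Over all genes, 917 rose and 1673 fell in shRunx2 cells with array weights, and 590 fell with every probe set tested. Leaving out 1 array gave 355 to 542 risen and 503 to 960 fallen genes. With every probe set tested, 138, 992 and 1210 probe sets rose at least 1.5-fold in shRunx2 over Scr cells of day 9, Scr cells of day 9 over day 0 and shRunx2 cells of day 9 over Scr day 0, out of more features. Other causes were not tested. Rescaling moved the median of all genes by less than 0.1.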

Other observations

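Matrix proteins that MMPs cleave were counted from a list of 20 genes, of which 19 were measured. Between shRunx2 and Scr cells of day 9, 1 rose (2.73% of all genes), 5 fell (4.66%) and 13 did not pass, with a median log2 difference of -0.025 over the list and -0.004 over all genes. Ibsp, or bone sialoprotein, was 10.14, 10.07 and 10.11 in shRunx2 cells, against 11.16, 11.27 and 11.26 in Scr cells of day 9 (log2 difference -1.12 ± 0.044, limma adjusted p = 1.05e-07). Tnc, or tenascin C, was 10.92, 10.90 and 10.87 in shRunx2 cells, against 11.52, 11.42 and 11.35 in Scr cells of day 9 (log2 difference -0.53 ± 0.045, limma adjusted p = 2.8e-05). Both genes had groups that did not overlap. The collagen chains Col3a1, Col5a2 and Col4a2 fell by 0.28, 0.29 and 0.18 on the log2 scale (limma adjusted p = 0.000864, 0.00243 and 0.00979). Dcn, the small proteoglycan decorin that binds collagen fibrils, rose by 0.22 ± 0.041 (limma adjusted p = 0.00722), with Scr day 9 values exactly equal on the 3 arrays. Vcan, or versican, passed as lower without Scr day 9 replicate 3 or without shRunx2 day 9 replicate 2 (limma adjusted p = 0.0321 and 0.0318).

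Between Scr cells of day 9 and day 0, 6 of the 19 substrate genes rose (14.5% of all genes) and 2 fell (17.1%), with a median of 0.058 over the list and -0.016 over all genes. Ibsp was 13.6-fold higher at day 9 (log2 difference 3.76 ± 0.044, limma adjusted p = 8.06e-13), Dcn 2.89-fold (1.53 ± 0.041, limma adjusted p = 2.52e-10) and Col3a1 1.83-fold (0.87 ± 0.038, limma adjusted p = 1.28e-08). Vcan was 2.15-fold lower (log2 difference -1.10 ± 0.054, limma adjusted p = 3.04e-08). Ibsp, Col3a1, Tnc and Col4a2, like Mmp13, were higher in Scr cells of day 9 than of day 0 and lower in shRunx2 than in Scr cells of day 9. These genes were named for that order, and both differences use the Scr day 9 arrays, so this is a description. Against Scr day 0, shRunx2 cells of day 9 were higher for Ibsp, Col3a1 and Col4a2 (log2 differences 2.64, 0.59 and 0.10) and lower for Tnc (-0.18). The call of Col4a2 passed in 8 of 19 alternative settings.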
